A study of Mus musculus with 12 samples.

Results

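The vessels of the lumbar spinal cord were examined through 40 genes, taken by symbol from a fixed list of endothelial, pericyte and vascular smooth muscle genes, out of 49548 genes in the count table. All 40 were matched by symbol to an Ensembl gene. The list was ordered by role into endothelial junction and surface proteins (7 genes), endothelial growth factor receptors (4), endothelial transcription factors (3), barrier transport (6), other endothelial products (6), pericyte and mural genes (9) and contractile smooth muscle genes (5). RNA came from the untreated cord of 8 MFN2 and 4 WT animals, all 30 days old, with 1 library per mouse. MFN2 mice were of the MitoCharc1 line, which carries the Eno2-MFN2*R94Q transgene at the L51Ugfm insertion on a B6;D2 background. In it the rat Eno2 promoter drives human MFN2 with the R94Q change. That promoter is active mainly in neurons, and all MFN2 mice come from 1 transgenic line. WT mice are labelled C57BL/6, whereas the study's methods call them littermates, and a difference of strain background and one of genotype cannot be told apart. Each library is named here by its number in the sample label. MFN2 libraries carried the numbers 41 to 43 and 72 to 76, and WT libraries 44 to 47, so that for libraries 72 to 76 the run of numbers and the genotype cannot be told apart. Total counts were between 19359454 and 26738930 per library.

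As background, brain and spinal cord endothelium forms the blood-spinal cord barrier, in which claudin and cadherin junctions seal the cells and dedicated transporters carry glucose, lipids and drugs across them. Wnt and Norrin ligands from neurons and glia maintain this state, and VEGF, angiopoietin and Notch signals shape the vessels. Pericytes cover the capillaries, while smooth muscle cells with actin, myosin and calponin encircle arterioles and respond to serum response factor. In RNA from whole tissue, fewer vascular cells and less RNA per cell cannot be told apart. Several listed genes are also made by other cells, Bsg by many of them and Des by muscle of any kind.

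Some libraries stood apart from the rest before any comparison. In library 43 (MFN2), 10 forebrain neuron genes summed to 4736 CPM (read counts relative to the library total, scaled by the TMM method), against 111 to 209 CPM in the other 11 libraries, and 7 caudal Hox genes to 23.4 CPM, against 128 to 177 CPM in the others. The 6 motor neuron genes summed likewise to 356 CPM there, against 1737 to 3143 CPM elsewhere. By these markers library 43 went against its spinal cord label, while the other 11 libraries held the caudal and motor neuron genes. Xist exceeded 1000 counts in 9 libraries, and the Y-linked Ddx3y was present in the other 3, which were MFN2 41, MFN2 43 and WT 44. Counts and medians of the vascular genes that include library 43 are therefore also given without it. So are the fold changes of genes described one by one where their comparison uses that library. Counts over the other gene lists are not repeated without it.

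Transcripts of all vascular classes were measurable, at levels that spanned a wide range. Levels between genes were compared as RPKM, which divides CPM by the annotated exon length. The labels and the methods name different library kits, and a heading of the supplement describes 3′ sequencing, for which this division would understate long genes. Bsg, the basigin chaperone of monocarboxylate transporters, was highest at 189 ± 15.6 RPKM (SD, n = 12) and did not overlap with the next gene. It was followed by Slc2a1, the glucose transporter of the barrier, at 24.3 ± 3.76, and by Rgs5, a regulator of G protein signals in pericytes, at 21.7 ± 3.49. Itm2a, an endothelial membrane protein, was at 19.8 ± 2.79 RPKM, and Mcam, the adhesion protein CD146 of endothelial and mural cells, at 19.5 ± 4.69. Within the other roles the highest means over the 12 libraries were those of Cldn5, Flt1 and Sox18. Cldn5, the main claudin of the barrier, had 15.3 ± 4.91 RPKM. Flt1, the decoy receptor for VEGF, had 4.16 ± 1.21, and the transcription factor gene Sox18 had 2.14 ± 0.863. Flt1 (1.94 to 5.44 RPKM) overlapped with Kdr of the same role (2.04 to 4.22 RPKM). Over the WT libraries alone the mean of Flt1 was not above that of Kdr. Contractile genes were low, with 1.27 ± 0.444 RPKM for Myh11, the smooth muscle myosin heavy chain, and 1.12 ± 0.486 for Acta2, smooth muscle actin. Cnn1, which encodes calponin, lay lowest at 0.05 RPKM. In this order 36 of 39 pairs of neighbouring genes overlapped in their ranges over the 12 libraries, and the number was also 36 over the 11 libraries without 43. There Bsg was at 190.3 RPKM and Mcam, at 20.6 RPKM, passed Itm2a at 19.5 RPKM.

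**Figure D1:**
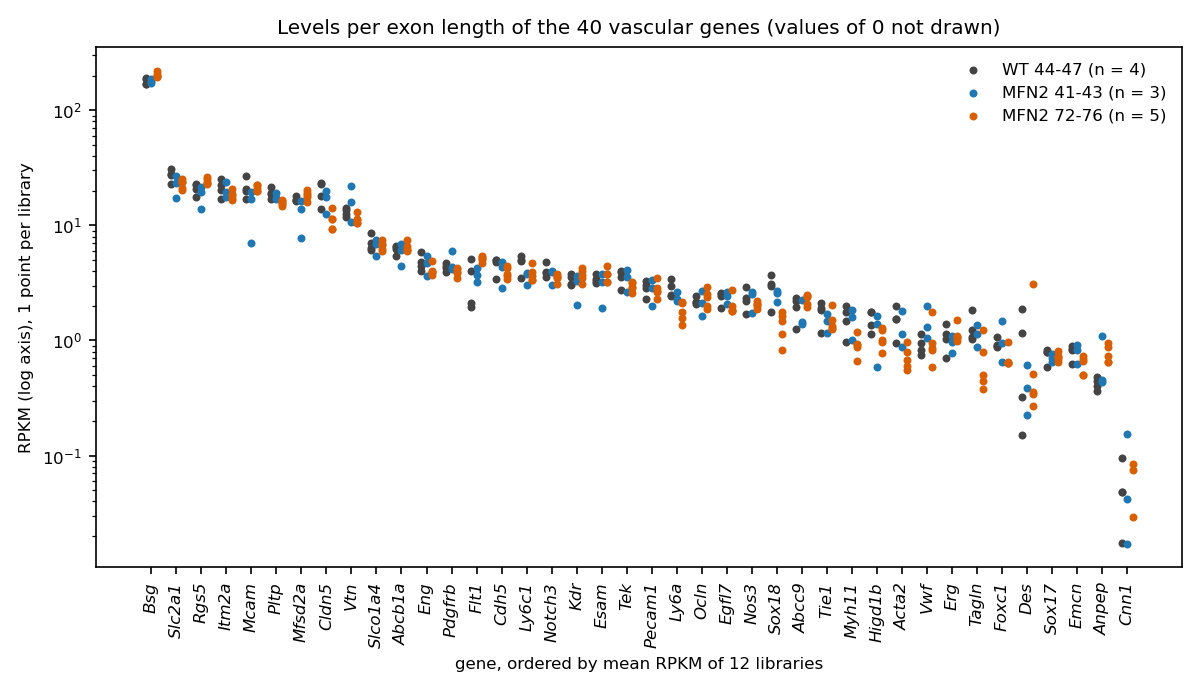
Level of each of the 40 genes in RPKM on a log axis, with 1 point per library and the genes ordered by their mean over 12 libraries. Bsg at 189 RPKM stands clear of the others, most neighbours overlap, and Cnn1 at 0.05 RPKM is lowest.

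The study asked whether the cord transcriptome differs between MFN2 and WT mice. Of the 40 genes, 39 passed the filter of more than 1 CPM in at least 3 libraries, and they were tested within all 15942 genes that passed. In the comparison of 8 MFN2 with 4 WT libraries, 0 of 39 vascular genes passed at 0.05 (quasi-likelihood F test of edgeR, p-values adjusted after Benjamini and Hochberg, called edgeR FDR from here on), where 0% of all tested genes did. At an unadjusted p under 0.05 there were 8 of 39 (20.5%), against 15% of all tested genes. Of these, 1 was higher in MFN2 mice (Anpep; 7.4% of all tested genes were higher) and 7 were lower (Acta2, Cldn5, Ly6a, Ly6c1, Pltp, Slc2a1 and Sox18; 7.57% of all tested genes). The lowest edgeR FDR of the 8 was 0.278, for Anpep. With each library left out in turn, the number with an unadjusted p under 0.05 ran from 1 without WT 45 (2.56%; 8.92% of all) to 14 without WT 44 (35.9%; 15.7% of all). It was 3 without WT 46 (7.69%; 9.05% of all), and 5 without WT 47 (12.8%; 10.1% of all) or MFN2 75 (12.8%; 11.9% of all). Levels of 0 of 39 genes separated the genotypes without overlap, against 2.04% of all tested genes, and 3 did so without WT 44 (7.69%; 7.21% of all).

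Fold changes were below 0 for 28 of 39 vascular genes (71.8%), against 49.2% of all tested genes. Their median log2 fold change was -0.16, and that of all tested genes was 0.0038. WT mice also differed in these genes, since the median offset of the 39 genes from the WT mean was -0.26 on the log2 scale in WT 44 and 0.14, 0.10 and 0.02 in WT 45 to 47. Without WT 44 the median log2 fold change was -0.21, with 34 of 39 genes below 0 (87.2%; 48.2% of all tested genes). Without library 43, 0 of 39 genes passed (0.119% of all tested genes), 12 of 39 had an unadjusted p under 0.05 (30.8%; 21.1% of all), 0 separated the genotypes (2.85% of all), 29 were below 0 (74.4%; 50.6% of all) and the median was -0.15. DESeq2, limma voom and every other alternative over the 12 libraries also gave 0 of 39. In the fit on the 9 libraries with Xist, added after seeing the data, 5 MFN2 libraries came from numbers 72 to 76 and 1 from 41 to 43. Its count is given in the last section beside the share of all tested genes.

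Within the first run of numbers the genotypes can be compared directly, with 3 MFN2 and 4 WT libraries. By edgeR FDR 0 of 39 vascular genes passed, where 1 of all tested genes (0.00627%) did, and 1 of 39 had an unadjusted p under 0.05, against 7.2%. No vascular gene separated the groups, against 8.81% of all tested genes, while 7 did so without WT 44 (17.9%; 17.8% of all) and 3 without MFN2 41 (7.69%; 23.3% of all). Fold changes were below 0 for 30 of 39 genes (76.9%; 50.3% of all tested genes), with a median of -0.10. This direction rested on library 41, in which 19 of 39 genes (48.7%) were below all 4 WT libraries, against 21.1% of all tested genes. Without it the median was 0.047, and 22 genes were above 0 (56.4%; 49.6% of all tested genes). Without library 43, 0 of 39 genes passed (0.00627% of all), 1 had an unadjusted p under 0.05 (Ly6c1; 5.67% of all), 0 separated the groups (14.7% of all), 33 were below 0 (84.6%; 50.5% of all) and the median was -0.16.

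More genes differed when libraries 72 to 76 were set against the same 4 WT libraries. By edgeR FDR 8 of 39 vascular genes passed (20.5%), 2 higher and 6 lower, where 23.5% of all tested genes passed. The share was thus near that of all genes and is no result about vascular genes as a class. The 2 higher genes (5.13%; 11.4% of all tested genes) were Anpep and Bsg, and the 6 lower genes (15.4%; 12.2% of all tested genes) were Acta2, Cldn5, Ly6a, Myh11, Pltp and Sox18. At an unadjusted p under 0.05 there were 15 of 39 (38.5%; 37.5% of all tested genes). Levels did not overlap for 4 of 39 genes (10.3%; 19.7% of all tested genes), of which Anpep and Bsg were higher (9.43% of all) and Ly6a and Pltp lower (10.2% of all). The median log2 fold change was -0.20, with 26 of 39 genes below 0 (66.7%; 49.2% of all tested genes).

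These counts rested in part on WT 44. Without it 14 of 39 genes passed (35.9%; 28.3% of all tested genes), 2 higher and 12 lower (30.8%; 14.9% of all were lower), 24 had an unadjusted p under 0.05 (61.5%; 40.8% of all) and 15 did not overlap (38.5%; 30.7% of all). Without MFN2 75 the number that passed was 5 (12.8%; 17% of all), and without MFN2 73 the number that did not overlap was 10 (25.6%; 22.6% of all). Calls gained without WT 44 were Flt1 (higher) and Cdh5, Itm2a, Ly6c1, Slc2a1, Tek and Vtn (lower), while Bsg was lost. Without MFN2 73, Foxc1, Tagln and Vtn were gained as lower, and Bsg was lost.

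The number runs also differed within the MFN2 genotype. Between libraries 72 to 76 and 41 to 43, 0 of 39 vascular genes passed by edgeR FDR, against 2.29% of all tested genes, and 11 of 39 had an unadjusted p under 0.05 (28.2%), against 24.5%. With DESeq2 the number was 4 (Cldn5, Flt1, Myh11 and Sox18), or 10.3% beside the 11.3% of all tested genes that DESeq2 called. Levels did not overlap for 7 genes (17.9%; 18.2% of all tested genes), of which 4 were higher in libraries 72 to 76 (Bsg, Flt1, Mcam and Rgs5; 9.62% of all) and 3 lower (Ly6a, Pltp and Sox18; 8.59% of all). Fold changes were below 0 for 20 of 39 genes, against 50.5% of all tested genes, with a median of -0.04. Library 41 bore on these values. Without it 17 genes did not overlap (43.6%; 26.9% of all tested genes), 27 were below 0 (69.2%; 51.3% of all) and the median was -0.18. Without MFN2 73 the values were 12 (30.8%; 20.5% of all), 26 (66.7%; 51.2% of all) and -0.12, and without MFN2 75 the number with an unadjusted p under 0.05 was 7 (17.9%; 19% of all). Without library 43, 3 genes passed by edgeR FDR (Anpep, Flt1 and Rgs5, each higher; 7.69%), where 14.6% of all tested genes did. At an unadjusted p under 0.05 there were then 13 (33.3%; 30.9% of all), 9 did not overlap (23.1%; 34.3% of all), 20 were below 0 (51.3%; 49.6% of all) and the median was -0.02. The libraries of the 2 runs share genotype and age, and they differ in number, in the presence of library 43 and in Xist, which was found in 5 of 5 and 1 of 3 libraries.

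**Figure D2:**
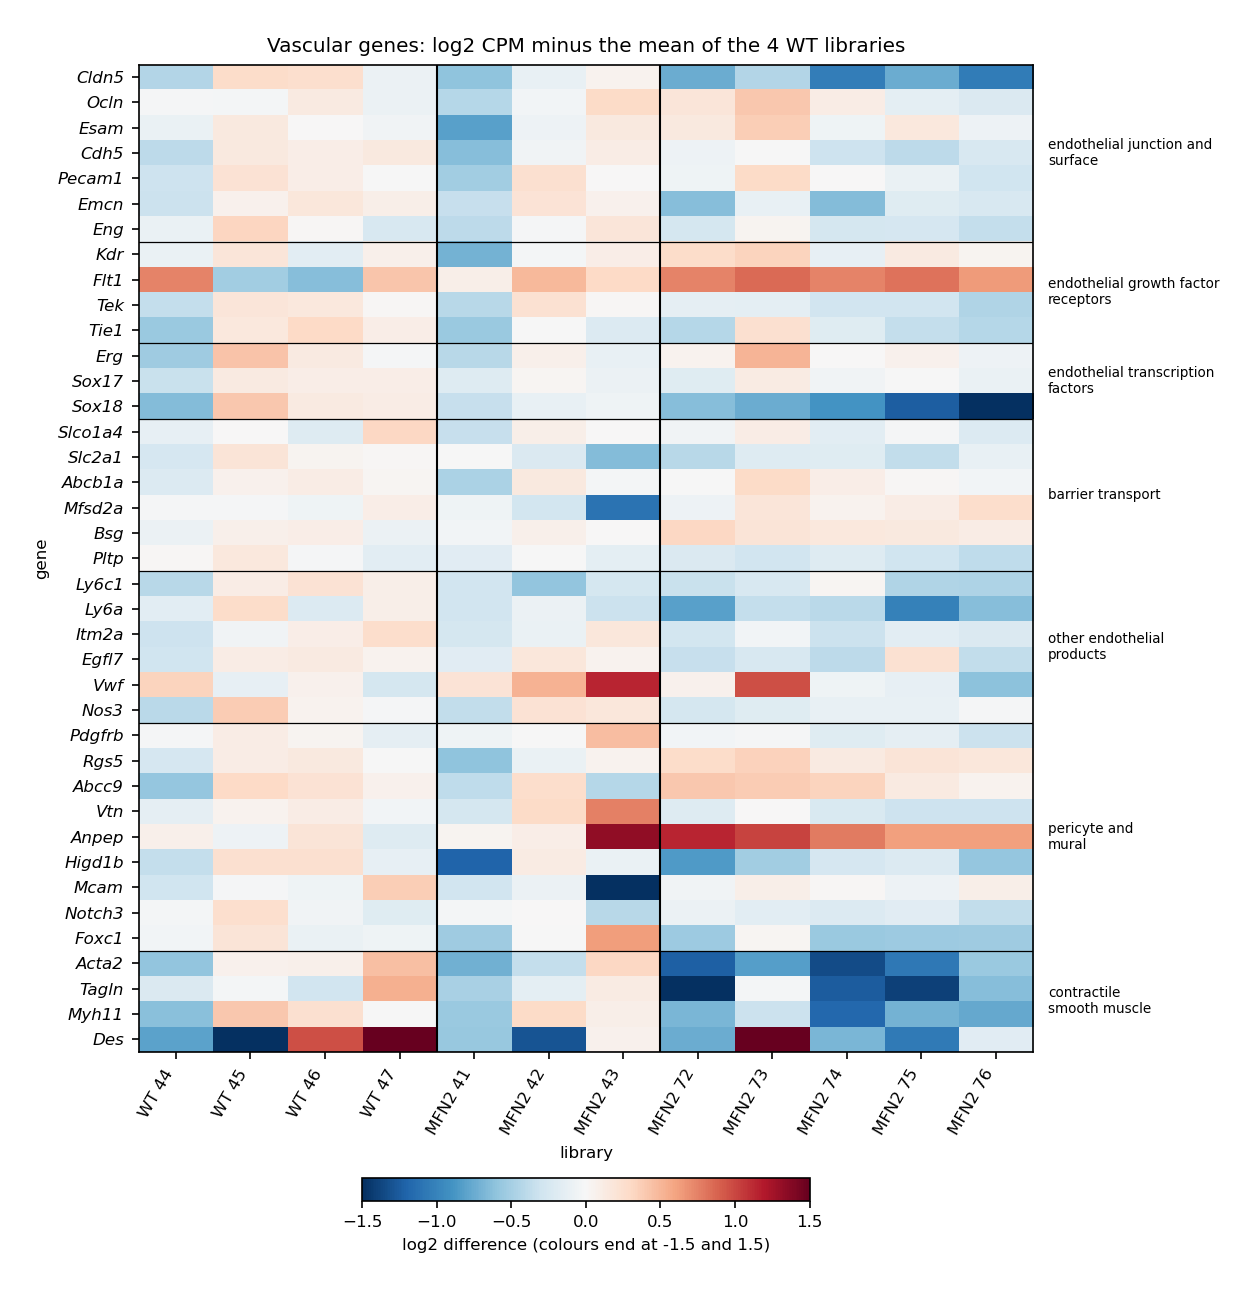
Log2 CPM of the 39 tested genes minus the mean of the 4 WT libraries, with 1 column per library and the genes grouped by role. Blue cells of Cldn5, Sox18, Acta2 and Myh11 in MFN2 72 to 76 and the red row of Anpep are visible, as are the pale blue column of MFN2 41 and the low Mcam and Mfsd2a of MFN2 43.

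Among the junction and surface genes, Cldn5 (chromosome 16, 18776847 to 18778262, plus strand, GRCm38) was the gene that passed. Its level was 19.8, 32.7, 32.2 and 25.4 CPM in WT 44 to 47. It was 17.8, 25.1 and 28.0 CPM in MFN2 41 to 43. It was 16.1, 19.97, 13.1, 16.1 and 13.1 CPM in MFN2 72 to 76. Of these last libraries 4 of 5 lay below every WT library, and library 73 lay just above WT 44. Cldn5 fell in MFN2 72 to 76 against WT, to 0.568 times the WT mean, with a log2 fold change of -0.81 ± 0.17 (SE; edgeR FDR = 0.00693). The call was kept with each of the 9 libraries left out in turn. Against MFN2 41 to 43 the log2 fold change was -0.60 ± 0.18 (edgeR FDR = 0.104), and in MFN2 41 to 43 against WT it was -0.20 ± 0.22 (edgeR FDR = 0.746). Without library 43 these values were -0.46 ± 0.18 and -0.35 ± 0.23, and neither passed.

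The other 6 junction genes did not pass. The log2 fold changes of MFN2 72 to 76 against WT were 0.08 for Ocln, the junction protein occludin, -0.21 for Cdh5, the endothelial cadherin, and -0.03 for Pecam1, the adhesion protein CD31. Their 95% intervals were -0.19 to 0.35, -0.47 to 0.04 and -0.30 to 0.24. Eng, the endothelial co-receptor endoglin, was at 19.4 ± 3.34 CPM in WT (n = 4) and at 16.5 ± 1.81 CPM in MFN2 72 to 76 (n = 5), while Emcn, an endothelial sialomucin, and Esam, an adhesion protein, had log2 fold changes of -0.36 and 0.12. The group median was -0.21.

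Of the growth factor receptors, 0 of 4 passed in any of the 4 comparisons over all their libraries. Without WT 44, Flt1 was called higher and Tek lower in MFN2 72 to 76 against WT. Flt1 (chromosome 5, 147561604 to 147726011, minus strand) was split within WT mice, with 68.4, 28.4, 26.2 and 54.6 CPM in libraries 44 to 47. The level was 43.5, 57.1 and 50.1 CPM in MFN2 41 to 43. MFN2 72 to 76 had 68.5, 73.5, 68.7, 72.1 and 63.8 CPM. The WT range therefore covered that of MFN2 41 to 43, 4 of 5 MFN2 72 to 76 libraries lay above the highest WT library, and the 2 MFN2 runs did not overlap. The log2 fold change between these runs was 0.46 ± 0.10 with an edgeR FDR of 0.0510, just above the threshold, and it passed in 5 of 8 alternative settings and with 2 of 8 libraries left out (42 or 43), being 0.46 ± 0.10 without library 43 as well. Against WT it was 0.65 ± 0.29 (edgeR FDR = 0.143). Kdr, the main signalling receptor for VEGF, was at 30.4 ± 3.33 CPM in WT and 33.4 ± 4.11 CPM in MFN2 72 to 76, and Tek and Tie1, the receptors of the angiopoietin system, had log2 fold changes of -0.27 and -0.24.

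Sox18, a transcription factor of endothelial differentiation (chromosome 2, 181669836 to 181671640, minus strand), had 2.84, 5.98, 4.96 and 4.85 CPM in WT 44 to 47. MFN2 41 to 43 had 3.51, 4.16 and 4.32 CPM. MFN2 72 to 76 had 2.86, 2.66, 2.37, 1.86 and 1.33 CPM. All MFN2 72 to 76 libraries lay below all MFN2 41 to 43 libraries, and 4 of 5 lay below WT 44, the lowest WT library. These levels rest on 26 to 65 reads in MFN2 72 to 76 and on 65 to 127 reads in WT. Sox18 fell in MFN2 72 to 76 against WT (log2 fold change -1.06 ± 0.25, edgeR FDR = 0.00956), and the call was kept with each library left out. Erg and Sox17, which encode further endothelial transcription factors, did not pass, with log2 fold changes of 0.09 ± 0.20 and -0.05 ± 0.15.

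In the barrier transport group 1 of 6 genes rose and 1 of 6 fell in MFN2 72 to 76 against WT (16.7% each), near the 11.4% and 12.2% of all tested genes. Bsg (chromosome 10, 79704491 to 79711969, plus strand) had 306, 342, 346 and 305 CPM in WT 44 to 47. It had 401, 372, 361, 360 and 351 CPM in MFN2 72 to 76, all above the highest WT library. MFN2 41 to 43 lay within the WT range, at 314, 340 and 325 CPM. The rise of Bsg was small, with a log2 fold change of 0.19 ± 0.06 (edgeR FDR = 0.0363). The call was lost without MFN2 72, 73, 74 or 75, WT 44 or WT 47, with an edgeR FDR of up to 0.0974, and in the fit over all 3 sets of libraries (edgeR FDR = 0.0952, where the alternative settings spanned 0.00626 to 0.0952).

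Pltp, which encodes a phospholipid transfer protein (chromosome 2, 164839518 to 164857711, minus strand), had 49.4, 54.8, 48.3 and 43.8 CPM in WT 44 to 47. It had 42.01, 39.9, 42.9, 39.6 and 37.5 CPM in MFN2 72 to 76, below each WT library and below MFN2 41 to 43 at 43.4, 48.7 and 44.3 CPM. Pltp fell in MFN2 72 to 76 against WT, with a log2 fold change of -0.28 ± 0.07 (edgeR FDR = 0.0121), and was kept with each library left out. It shares 495 exon bases with Ctsa on the other strand, and the strand setting of the counting is not given in the sources used here. Slc2a1 was at 95.7 ± 12.01 CPM in WT and at 80.2 ± 7.26 CPM in MFN2 72 to 76 (edgeR FDR = 0.0535). Mfsd2a, the lipid transporter that limits transcytosis, had 17.6 CPM in library 43, and the other 11 ranged from 31.3 to 45.9 CPM. Abcb1a, a drug efflux pump with a close paralog in Abcb1b, and Slco1a4, an organic anion transporter, had log2 fold changes of 0.07 and -0.07 against WT, with 95% intervals of -0.10 to 0.25 and -0.28 to 0.14.

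**Figure D3:**
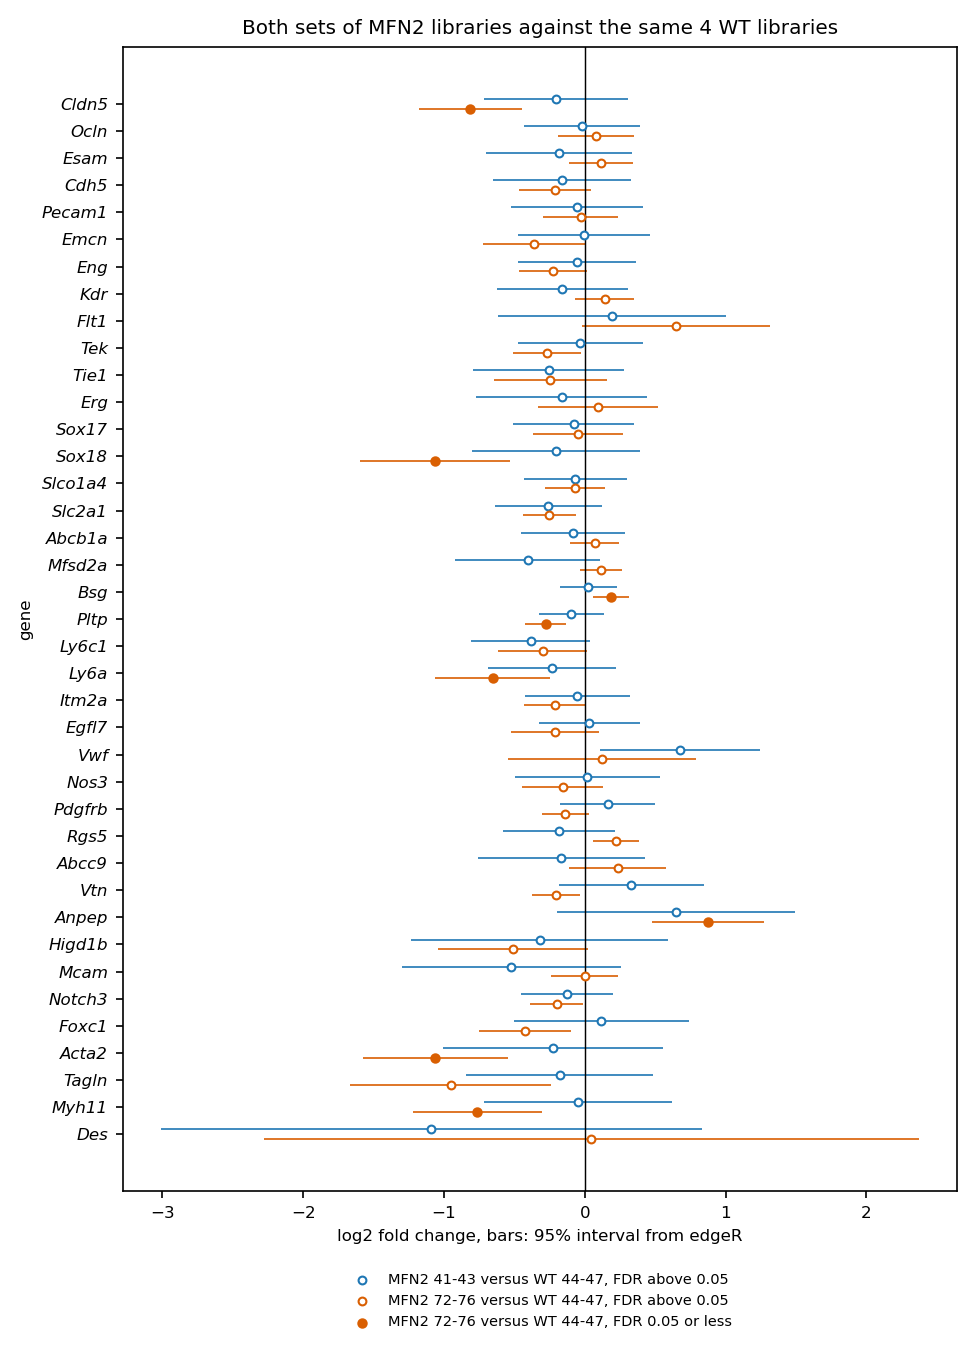
Log2 fold change and 95% interval of the 39 tested genes, for MFN2 41 to 43 (blue) and MFN2 72 to 76 (orange) against the same 4 WT libraries, with filled points at an edgeR FDR of 0.05 or less. The 8 filled points are all orange, from -1.06 for Sox18 and Acta2 to 0.87 for Anpep, and the interval of Des is the widest.

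Among the other endothelial products, Ly6a, the surface antigen Sca-1 (chromosome 15, 74994877 to 74998031, minus strand), was at 3.01, 4.10, 2.92 and 3.60 CPM in WT 44 to 47. It was at 1.89, 2.61, 2.53, 1.63 and 2.14 CPM in MFN2 72 to 76. The 2 sets did not overlap, and MFN2 41 to 43 at 2.75, 3.17 and 2.67 CPM lay between them or within the WT range. Ly6a fell in MFN2 72 to 76 against WT by 0.65 on the log2 scale (SE 0.19, edgeR FDR = 0.0255). The call was lost without MFN2 72 or 75 or WT 45 or 47, with an edgeR FDR of up to 0.0871. Ly6c1, another gene of the Ly6 family, had a log2 fold change of -0.30 ± 0.15 (edgeR FDR = 0.155), and Itm2a one of -0.21 ± 0.10 (edgeR FDR = 0.148).

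Vwf, the von Willebrand factor of larger vessels, was the 1 vascular gene with an unadjusted p under 0.05 within the first run of numbers. Its level was 16.8, 20.9 and 32.3 CPM in MFN2 41 to 43. It was 18.3, 13.4, 15.2 and 12.1 CPM in WT. Library 41 lay within the WT range, and the highest value was that of library 43. The log2 fold change was 0.68 ± 0.24 (edgeR FDR = 0.635) and 0.36 without library 43 (edgeR FDR = 0.892; 0.309 to 0.892 over the 7 libraries left out in turn). Egfl7, a secreted protein whose exons overlap 4 other annotated genes, and Nos3, the endothelial nitric oxide synthase, did not pass in any comparison.

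Pericyte and mural genes showed 1 rise (11.1%; 11.4% of all tested genes) and 0 falls (12.2% of all) among 9 genes in MFN2 72 to 76 against WT, a share of rises near that of all genes. Anpep, the aminopeptidase CD13 of pericytes (chromosome 7, 79821803 to 79861059, minus strand), was at 1.83, 1.65, 1.99 and 1.51 CPM in WT 44 to 47. It was at 3.95, 3.61, 3.06, 2.71 and 2.70 CPM in MFN2 72 to 76, each above the highest WT library. In MFN2 41 to 43 it was at 1.79 and 1.87 CPM, within the WT range, and at 4.50 CPM in library 43. Anpep rose in MFN2 72 to 76 to 1.84 times the WT mean, with a log2 fold change of 0.87 ± 0.18 (edgeR FDR = 0.00581). The call was kept with each library left out and lost in the fit over all 3 sets of libraries (edgeR FDR = 0.0727, where the alternative settings spanned 0.000553 to 0.0727).

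Rgs5 was at 79.7, 103, 105 and 94.7 CPM in WT 44 to 47. It was at 115, 120, 104, 109 and 107 CPM in MFN2 72 to 76, where 4 of 5 libraries exceeded the highest WT library. MFN2 41 to 43 had 62.5, 88.7 and 98.3 CPM and did not overlap with MFN2 72 to 76. The log2 fold change was 0.22 ± 0.08 against WT (edgeR FDR = 0.0515) and 0.41 ± 0.14 against MFN2 41 to 43 (edgeR FDR = 0.125). Without library 43 the second comparison passed, at 0.55 (edgeR FDR = 0.0189, where the 8 libraries left out in turn spanned 0.0189 to 0.229), while without library 41 the log2 fold change was 0.21 and did not pass. Mcam had 23.7 CPM in library 43, while the other 11 ranged from 56.9 to 90.5 CPM, and its log2 fold change was -0.0015 in MFN2 72 to 76 against WT, with a 95% interval of -0.24 to 0.24. Pdgfrb, the PDGF receptor of pericytes, was at 23.9 ± 1.70 CPM in WT and 21.7 ± 1.80 CPM in MFN2 72 to 76. Of the remaining genes, Abcc9, Vtn, Higd1b, Notch3 and Foxc1 had log2 fold changes from -0.51 for Higd1b to 0.23 for Abcc9. None of them passed over all libraries of this comparison. Without MFN2 73, Vtn and Foxc1 were called lower, and without WT 44 Vtn was.

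Contractile smooth muscle genes had the lowest median of the roles in MFN2 72 to 76 against WT, at -0.86 over 4 tested genes, of which 2 fell (50%; 12.2% of all tested genes). With 4 genes this is a description of these members. Acta2 (chromosome 19, 34241090 to 34255590, minus strand) was at 2.10, 3.34, 3.37 and 4.38 CPM in WT 44 to 47. It was at 1.91, 2.48 and 3.99 CPM in MFN2 41 to 43. MFN2 72 to 76 had 1.32, 1.76, 1.21, 1.47 and 2.14 CPM. Of these, 4 of 5 lay below every WT library, and library 76 lay just above WT 44. The levels rest on 30 to 42 reads in MFN2 72 to 76 and 48 to 84 reads in WT. Acta2 fell in this comparison, to 0.479 times the WT mean, with a log2 fold change of -1.06 ± 0.24 (edgeR FDR = 0.00787), and the call was kept with each library left out. Against MFN2 41 to 43 it was -0.83 ± 0.29 (edgeR FDR = 0.131), and MFN2 41 to 43 against WT gave -0.22 ± 0.34 (edgeR FDR = 0.813). Without library 43 these values were -0.49 ± 0.27 and -0.57 ± 0.31, and neither passed.

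Myh11 (chromosome 16, 14194535 to 14291372, minus strand) was at 7.33, 15.1, 13.5 and 11.3 CPM in WT 44 to 47. MFN2 41 to 43 had 7.71, 13.9 and 12.2 CPM. MFN2 72 to 76 had 7.03, 9.08, 4.99, 6.93 and 6.68 CPM. As for Acta2, 4 of 5 of these libraries were below all WT libraries, here with library 73 above WT 44. Myh11 fell in this comparison, with a log2 fold change of -0.76 ± 0.21 (edgeR FDR = 0.0236). The call was lost without MFN2 75, WT 45 or WT 46, with an edgeR FDR of up to 0.0711, and in the fit over all 3 sets of libraries (edgeR FDR = 0.0655, where the alternative settings spanned 3.43e-08 to 0.0655). Tagln, the actin-binding protein transgelin, was at 2.14, 2.45, 2.04 and 3.65 CPM in WT and at 0.75, 2.46, 1.01, 0.89 and 1.58 CPM in MFN2 72 to 76 (edgeR FDR = 0.0541), and it shares 1241 exon bases with an antisense gene. Cnn1 had 0 to 11 reads per library and did not enter the test. A count of 0, as in MFN2 72 and 73, allows up to 3 reads.

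**Figure D4:**
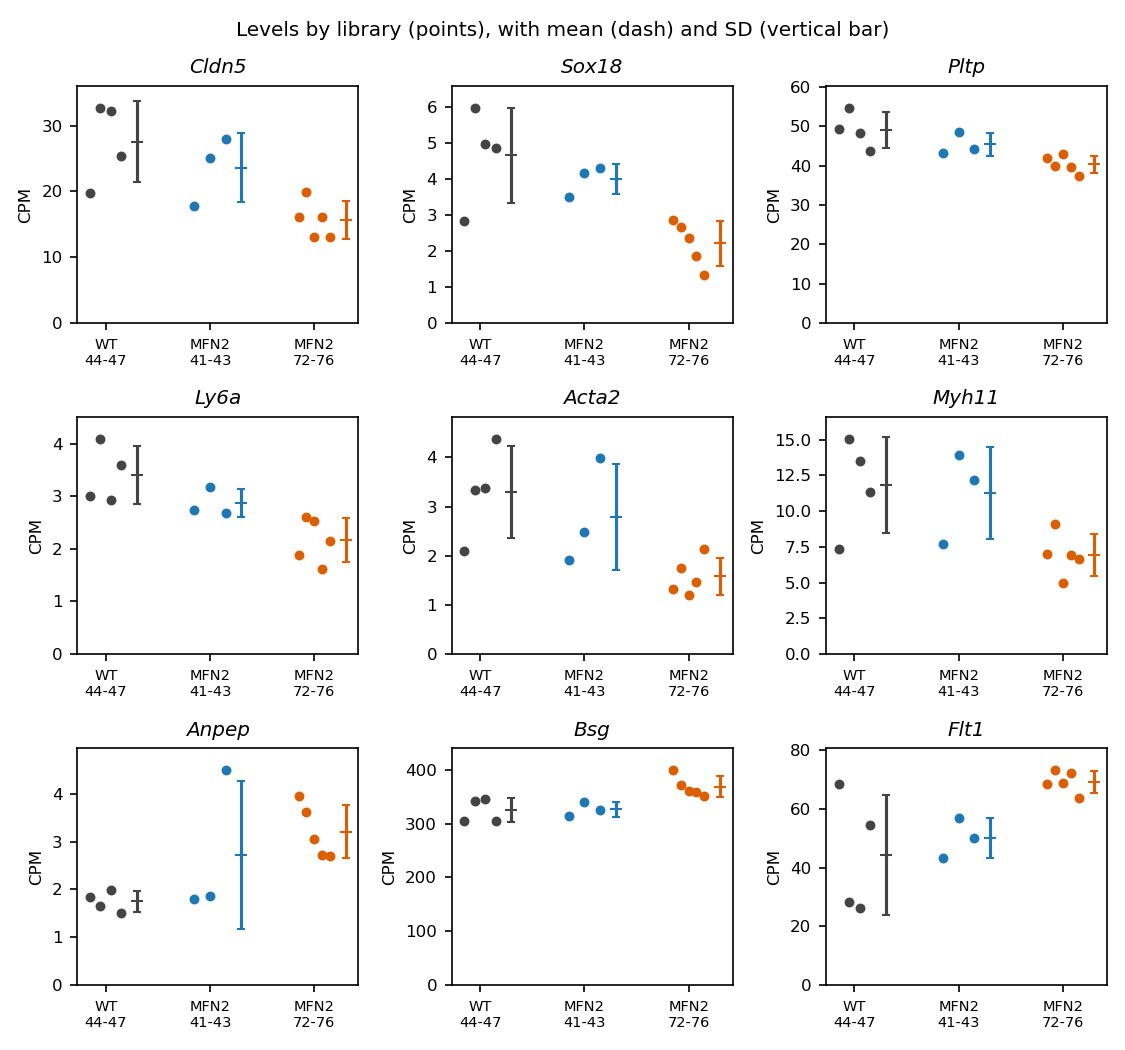
CPM of 9 genes in each library (points), with the mean (dash) and SD (vertical bar) of WT (n = 4), MFN2 41 to 43 (n = 3) and MFN2 72 to 76 (n = 5). Bsg and Anpep of MFN2 72 to 76 lie above all WT libraries, Pltp and Ly6a lie below them, and the 4 WT points of Flt1 are split from 26.2 to 68.4 CPM.

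Serum response factor binds CArG boxes, which are known from smooth muscle promoters. The Acta2 boxes are shown as a description of its promoter, singled out after the levels of Acta2 were seen. A link between the levels of Srf and Acta2 was not tested. A CArG box was read as CC, 6 bases of A or T with at most 1 other base, and GG, a pattern that reads alike on both strands. Promoters were RefSeq windows of GRCm38.p6, from 250 bases before to 50 bases after a transcription start, and 27 of the 40 genes had at least 1 window. The Acta2 window, with its start at position 34255373 of chromosome 19 on the minus strand, held 2 boxes, given here 5′ to 3′ on the minus strand with 10 bases on either side and the box in capitals.
Acta2 box 84 to 75 bases before the start, chr19:34255438-34255467: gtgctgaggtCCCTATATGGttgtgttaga
Acta2 box 34 to 25 bases before the start, chr19:34255388-34255417: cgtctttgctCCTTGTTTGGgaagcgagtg

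Each box had 1 base other than A or T in its core. GENCODE M21 places the first exon of a longer Acta2 transcript from 34255290 to 34255590, which covers both boxes. The distances of the boxes are counted from the RefSeq start alone and would differ from another start. At least 1 box was present in 7 of 33 windows of vascular genes (21.2%) and in 9.98% of all 32851 windows, while at least 2 were present in 1 vascular window and in 0.822% of all. Of the contractile genes with a window, Cnn1 and Des held no box, while Myh11 and Tagln had no window and were not examined. With all 6 core bases A or T, 0 of 33 vascular windows held a box, against 1.63% of all windows. The 7 genes under the looser rule were Acta2, Egfl7, Eng, Kdr, Ocln, Slco1a4 and Tek, and the other 6 did not pass in MFN2 72 to 76 against WT. A match describes letters in the window and not a bound site.

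Des, the intermediate filament of muscle cells, varied most within the genotypes. It was at 1.22, 0.57, 4.39 and 6.99 CPM in WT 44 to 47. It was at 1.45, 0.84 and 2.30 CPM in MFN2 41 to 43. It was at 1.27, 11.6, 1.33, 1.01 and 1.94 CPM in MFN2 72 to 76. The groups overlapped in all libraries but MFN2 73, which lay above the highest WT library, and the other high values were those of WT 46 and WT 47. The list of 6 skeletal muscle genes summed to 11.6, 3.20, 42.3 and 220 CPM in WT 44 to 47. It summed to 10.1, 11.5 and 17.8 CPM in MFN2 41 to 43 and to 15.9, 218, 27.2, 23.3 and 39.0 CPM in MFN2 72 to 76. Its most abundant gene was Myh4, a fast skeletal myosin, and 1 of 6 genes (Ckm) was at 0 in a library, WT 45. The muscle list was thus highest in the libraries in which Des was highest, whereas Acta2 had 1.76 CPM in library 73 and 4.38 CPM in WT 47. Its part in the level of Des was not tested.

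**Figure D5:**
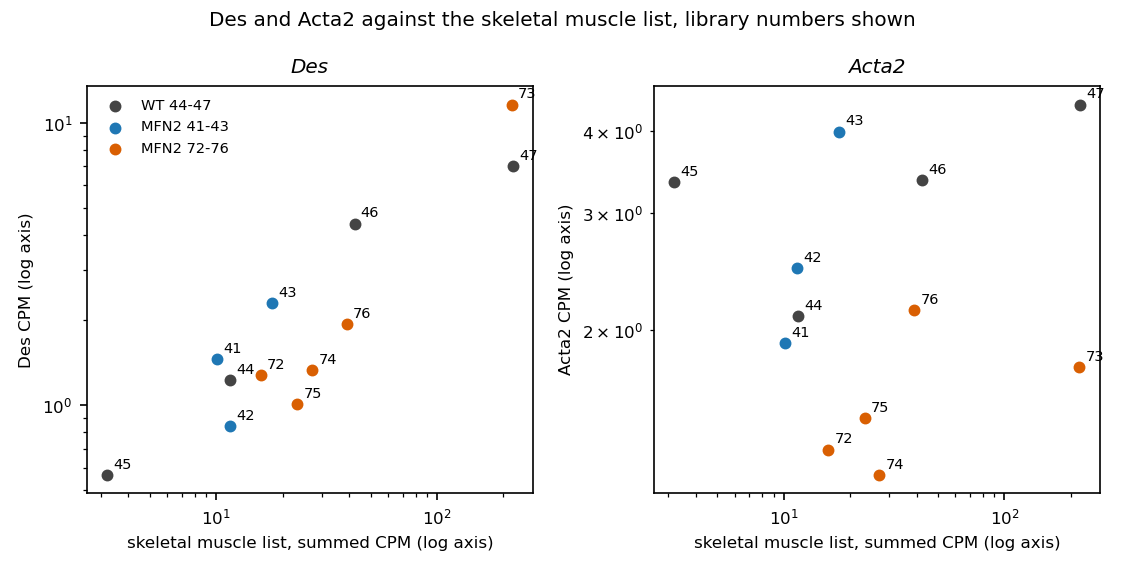
CPM of Des (left) and Acta2 (right) against the summed CPM of 6 skeletal muscle genes, on log axes with 1 numbered point per library. Des is highest in libraries 73 and 47, at 11.6 and 6.99 CPM, where the muscle list is at 218 and 220 CPM, and Acta2 of library 73 lies among the other orange points.

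Genes of the same pathways were taken from lists outside the 40 genes. In the 8 against 4 comparison and within the first run of numbers, 0 genes of the pathway and marker lists passed by edgeR FDR. In MFN2 72 to 76 against WT, 6 of 25 angiogenic ligand, co-receptor and Notch genes fell (24%) and 0 rose, beside 12.2% and 11.4% of all tested genes. S1pr1, the sphingosine 1-phosphate receptor and most abundant gene of the list, was at 91.4 to 101 CPM in WT and at 61.6 to 67.7 CPM in MFN2 72 to 76, with no overlap and a log2 fold change of -0.57 ± 0.05 (edgeR FDR = 2.9e-05). Levels in MFN2 41 to 43 were 95.7 to 106 CPM, and S1pr1 was the 1 gene of the list that also fell against them (log2 fold change -0.63, -0.59 without library 43, and passing with each of the 8 libraries left out in turn). S1pr1 is made by astrocytes as well as by endothelium. The other named falls were Acvrl1, a receptor of the BMP9 pathway (-0.56), Tgfbr2, a TGF beta receptor (-0.43), Pdgfb, the ligand that recruits pericytes (-0.39), and Fgd5, an endothelial exchange factor (-0.36). With each of the 9 libraries left out in turn, Pdgfb passed in 2 of 9 (edgeR FDR up to 0.165) and Fgd5 in 8 of 9.

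Of the 20 Wnt and Norrin barrier genes, 6 fell (30%; 12.2% of all tested genes) and 1 rose (5%; 11.4% of all) in MFN2 72 to 76 against WT, and the median log2 fold change was -0.21. Wnt7a, a ligand that maintains the barrier, was at 13.1, 14.5, 15.7 and 10.7 CPM in WT 44 to 47. It was at 16.2, 18.9 and 13.0 CPM in MFN2 41 to 43 and at 8.13, 7.22, 8.17, 8.52 and 9.23 CPM in MFN2 72 to 76. The last set lay below both others. Wnt7a fell against WT by 0.71 on the log2 scale (edgeR FDR = 0.00137) and against MFN2 41 to 43 by 0.96 (edgeR FDR = 0.0184), where the second call was lost without MFN2 72, 73, 74 or 75 (edgeR FDR up to 0.0729) and kept without library 43 at -1.09. Its partner ligand Wnt7b also fell, by 0.54 (edgeR FDR = 0.000663), but not in the fit over all 3 sets of libraries (edgeR FDR = 0.164, where the alternative settings spanned 3.59e-08 to 0.164), and it was at 44.8 CPM in library 43 against 13.7 to 23.4 CPM in the others. The co-receptor gene Lrp5 (-0.43), the Norrin co-receptor gene Tspan12 (-0.33) and Ctnnb1 (beta catenin, -0.21), the most abundant of the list, were lower too, with Lrp5 not passing without WT 45. Apcdd1, a Wnt inhibitor, rose by 0.58 (edgeR FDR = 0.001), from 15.9 to 21.9 CPM in WT to 25.8 to 29.5 CPM.

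In the tight junction partners 2 of 11 genes were called higher in the same comparison (18.2%, beside 11.4% of all tested genes). The number that fell was 1 (9.09%, beside 12.2% of all). The higher calls include Marveld2, which depended on the filter as described below, so their share is no result about the list. Afdn (afadin) was higher by 0.17, while Jam2 was lower (-0.29). Marveld2 (tricellulin) had a log2 fold change of 1.01, at 0.39 to 0.68 CPM in WT and 0.85 to 1.78 CPM in MFN2 72 to 76. It exceeded 1 CPM in MFN2 72, 75 and 76 only. The filter thus admitted it through the group where it was high, and its value cannot show a rise apart from the filter. With each library left out in turn, Marveld2 passed in 5 of 9 and Afdn in 6 of 9. Tjp1, the scaffold ZO-1 and the most abundant of the list, did not pass. Of 14 tested transporter genes 1 rose and 1 fell (7.14% each, below both shares of all tested genes). These were Slc7a5, the large neutral amino acid carrier (0.30), and Slc16a1, the monocarboxylate carrier (-0.29), and Spock2, the most abundant, did not pass. In the basement membrane list 2 of 11 genes rose, Col4a1 (0.41) and Col4a2 (0.46), which encode collagen IV chains, and 2 fell, the laminin genes Lama5 (-0.53) and Lamb2 (-0.42), each 18.2% of the list, although Col4a1 passed in 2 of 9 with each library left out in turn (edgeR FDR up to 0.113). Fold changes were below 0 for 3 of 11 genes (27.3%; 49.2% of all tested genes), with a median of 0.15, the highest being a further laminin gene, Lamb1 (0.58), which did not pass, nor did Sparc, the most abundant.

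Regulators of contractile and mural cells had 3 falls (16.7%) and 2 rises (11.1%) among 18 tested of 22 genes, near the 12.2% and 11.4% of all tested genes and so no result about the list. Srf, which encodes serum response factor, was at 22.9, 26.3, 23.4 and 22.8 CPM in WT 44 to 47. It was at 18.4, 17.0, 17.6, 17.4 and 18.5 CPM in MFN2 72 to 76, without overlap, and fell by 0.42 on the log2 scale (edgeR FDR = 0.00128). MFN2 41 and 42 were at 25.3 and 25.0 CPM and library 43 at 41.1 CPM. The call against WT was lost in the fit over all 3 sets of libraries (edgeR FDR = 0.0681, where the alternative settings spanned 2.76e-06 to 0.0681). The fall against MFN2 41 to 43 (log2 fold change -0.78, edgeR FDR = 0.0494) was lost without each library but 43, with an edgeR FDR of up to 0.135, and by library size alone, upper-quartile scaling and limma voom (adjusted p of up to 0.0562), and the log2 fold change was -0.50 without library 43. Myl9, a smooth muscle myosin light chain, fell by 0.61 (edgeR FDR = 0.0182; 0.0806 in the fit over all 3 sets, where the alternative settings spanned 0.00851 to 0.0806), and Synpo2, an actin-binding protein, was lower by 0.53. Mrtfb, a coactivator of Srf and the most abundant of the list, was higher by 0.24 and Zic1 by 0.46. Zic1 passed in 2 of 9 with each library left out in turn (edgeR FDR up to 0.108) and Synpo2 in 8 of 9.

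Markers of other cells moved in the same comparison. Of 7 astrocyte genes, 5 fell (71.4%; 12.2% of all tested genes), namely Gfap (-1.08), Gja1 (-0.31), Agt (-0.31), Aldh1l1 (-0.29) and Slc1a2 (-0.16), and the other 2 did not pass. With each library left out in turn, Gja1 and Aldh1l1 passed in 9 of 9, Gfap in 7, Agt in 4 and Slc1a2 in 1 (edgeR FDR up to 0.105). The list summed to 7149, 7939, 6937 and 7223 CPM in WT 44 to 47, to 8698, 6131 and 5796 CPM in MFN2 41 to 43 and to 5093, 5451, 5259, 5115 and 6506 CPM in MFN2 72 to 76. All MFN2 72 to 76 libraries were below all WT libraries. Slc1a2, a glutamate transporter, was the most abundant gene of the list, and 0 of 7 were at 0 in any library. Of 8 microglia and macrophage genes, 5 fell (62.5%; 12.2% of all tested genes), namely C1qa (-0.83), Tmem119 (-0.76), Cx3cr1 (-0.50), Csf1r (-0.32) and P2ry12 (-0.29). The other 3 did not pass, and the macrophage genes Cd163 and Mrc1 had log2 fold changes above 0, of 0.82 ± 0.33 (edgeR FDR = 0.0860) and 0.56 ± 0.32 (edgeR FDR = 0.217), while that of Aif1 was -0.32. Cd163 exceeded 1 CPM in WT 44 and MFN2 72 to 75 only. The filter thus admitted Cd163 through the group where it was high, and its value cannot show a rise apart from the filter. With each library left out in turn, C1qa, Tmem119 and Cx3cr1 passed in 9 of 9, Csf1r in 2 and P2ry12 in 1 (edgeR FDR up to 0.139).

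The microglial list summed to 111, 146, 128 and 133 CPM in WT 44 to 47, to 170, 108 and 178 CPM in MFN2 41 to 43 and to 101, 101, 98.4, 83.4 and 107 CPM in MFN2 72 to 76. The last set again lay below all WT libraries. Csf1r was the most abundant gene of the list, and 0 of 8 were at 0. The part of the astrocyte and microglial differences in the values of S1pr1, of the Wnt genes or of the 8 vascular genes was not tested.

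The remaining marker lists held at most 1 call each in MFN2 72 to 76 against WT, where 23.5% of all tested genes passed. Of the meningeal and perivascular fibroblast genes 1 of 11 tested passed, Ptgds (-1.83, lower), in a list that ranged from 269 to 677 CPM and was led by Col1a1. Red blood cell genes gave 1 of 5, Alas2 (1.18, higher, passing in 3 of 9 with each library left out in turn), with sums of 68.1 to 333 CPM, the highest of them in library 73 and Hbb-bs the most abundant gene. Forebrain genes gave 1 of 8 tested, Nrgn (0.58, higher), with Camk2a most abundant. None of the caudal Hox (most abundant Hoxa9), motor neuron (Nefh), Schwann (Sox10), skeletal muscle (Myh4) and choroid plexus (Kl) genes passed. The Schwann list ranged from 138 to 428 CPM and the choroid plexus list from 4.57 to 9.78 CPM. In these lists no gene was at 0 in all 12 libraries, while 1 fibroblast, 1 forebrain, 1 Schwann and 2 choroid plexus genes were at 0 in at least 1 library. Between the MFN2 runs, Ptgds (-1.77), Cx3cr1 (-0.70) and, from the basement membrane list, Lamb2 (-0.39) also fell by edgeR FDR in libraries 72 to 76, and each also did without library 43 (-1.85, -0.57 and -0.39). Ptgds kept this call with each of the 8 libraries left out in turn, whereas Cx3cr1 kept it in 2 of 8 (without 42 or 43; edgeR FDR 0.0178 to 0.134) and Lamb2 in 1 of 8 (without 43; edgeR FDR 0.00903 to 0.128).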

How the data were processed

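RNA-seq of the lumbar spinal cord was analysed in 8 MFN2 and 4 WT mice. The authors aligned reads to GRCm38.p6 with STAR, per the labels and methods, and deposited whole-number read counts per Ensembl gene, without normalization. The counting tool and strand setting are not given in the sources used here, so counts of overlapping and antisense genes are uncertain. Symbols and exon lengths came from GENCODE M21 (49289 of 49548 genes matched).

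Genes above 1 CPM in at least 3 of 12 libraries were kept (15942). Testing over the whole table used the legacy quasi-likelihood form of edgeR (version 4.0.16, under R 4.3.3) with TMM factors, robust dispersions and a Benjamini-Hochberg FDR of 0.05. Intervals of 95% used the test's degrees of freedom, and SEs came from its F statistic. The 3 comparisons with WT share the same 4 libraries. Each library is 1 mouse, and in each pair within a genotype at least 15700 tested genes had different counts. Nothing beyond this shows separate litters, so p-values measure the spread between these mice. Alternatives were other filters and scalings, DESeq2 1.42.0, limma voom (limma 3.58.1), edgeR's newer form, a fit over all 3 sets of libraries, the number run as a term and each library left out. A fit on the 9 libraries with Xist was added after seeing the data. The edgeR steps were tested on simulated data.

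The 40 genes and all lists were chosen with earlier results of these data known. Named one by one were the 2 genes with the highest RPKM in each role, genes with an FDR of 0.05 or less, genes without overlap, genes removed by the filter and, in other lists, the 5 largest changes among the calls and the most abundant gene. Values of Vwf, Mfsd2a, Tagln, Des, Lamb1, Cd163 and Mrc1, and the Acta2 promoter, were singled out after being seen. Counting error limits genes near 1 CPM.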

Additional observations from a re-analysis of the deposited data

Results flagged for a closer look

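Within a genotype, 9 of 78 groups of levels had a highest or lowest library farther from its neighbour than Dixon's 95% value allows, where chance flags about 1 in 20 groups, or 3.9 of 78. In library 43 (MFN2) this held for 5 genes. Pdgfrb (32.8 CPM, gap 0.660 of the range), Foxc1 (8.54 CPM, 0.604), Acta2 (3.99 CPM, 0.542) and Vtn (44.7 CPM, 0.537) were highest there, and Mcam (23.7 CPM, 0.657) was lowest. It is the library with 4736 CPM of the forebrain list, and the part of this in these levels was not tested. In WT 44, Cdh5 (14.4 CPM, gap 0.904) and Sox17 (2.79 CPM, gap 0.910) were lowest. In MFN2 73, Erg (5.17 CPM, gap 0.555) and Des (11.6 CPM, gap 0.864) were highest.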

How the results depend on the processing

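No paired analysis was possible because MFN2 and WT libraries have no number in common. Over 8 MFN2 and 4 WT libraries, the number of vascular genes called was 0 with each library left out and under all alternatives but the fit on the 9 libraries with Xist, added after seeing the data, which called 9 of 39 (13.9% of all tested genes), with 5 of its 6 MFN2 libraries from numbers 72 to 76. The median log2 fold change stayed between -0.21 and -0.07 with each library left out. Within the first run of numbers the count stayed 0 and the median ranged from -0.20 to 0.047, turning above 0 without MFN2 41. Between the MFN2 runs the count was 1 (Flt1) without a filter, by library size, by upper quartile and by limma voom. The shares of all tested genes under these settings are not given, so this is no result about the list. It was 4 by DESeq2, near the share given above, and 0 to 3 with each library left out (3 without library 43, where 14.6% of all passed). The median was 0.015 by library size alone, where that of all tested genes was 0.055. For MFN2 72 to 76 against WT the count was 14 without a filter, where 11% of all tested genes passed, 5 in the fit over all 3 sets (7.68% of all) and 5 to 14 with each library left out, lowest without MFN2 75 and highest without WT 44 (17% and 28.3% of all), with medians of -0.25 to -0.11. The cause of these differences was not tested. Cldn5, Sox18, Acta2 and Pltp kept their calls in that comparison under every alternative run. Genes near 1 CPM are limited by depth, and 3 libraries with a forebrain-marked one among them limit the first run.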
